A study of Homo sapiens and Mus musculus with 19 samples.

Results

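The olfactory receptor genes of human chromosome 11 were described here in HepG2, a line from a hepatocellular carcinoma, and in H1ES, a human embryonic stem cell line. The genes were chosen by name alone, as protein-coding genes of chromosome 11 whose symbol is OR, a family number, 1 or more letters and a member number. Of the 171 genes that met this rule, 168 had a position on the primary chromosome in the GRCh38.p14 RefSeq table, among 18969 protein-coding genes placed on autosomes. OR8U8, OR8U9 and OR9G9 are listed on sequences outside the primary chromosome and have no values here. The study profiled unmodified, methylated (5mC) and hydroxymethylated (5hmC) cytosine at CCGG sites with DARESOME, in which each of the 3 states receives its own sequence tag. The human libraries are 2 HepG2 and 2 H1ES libraries of 1000 cells, and 5 single HepG2 and 5 single H1ES cells. Neither line was given a treatment in the labels, and each line stands for 1 genetic background. Nothing in the labels says that libraries of a line came from separate cultures, so their spread may be technical.

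Olfactory receptors are G protein-coupled receptors that bind odorants in the cilia of sensory neurons in the nose. Each mature neuron keeps a single receptor gene active, usually from a single allele, while the rest of the repertoire stays in compact chromatin. The genes have short coding regions without introns, lie in clusters in CpG-poor DNA, and fall into class I (families 51 to 56, the fish-like receptors) and class II (all other families). Neither a liver cancer line nor an embryonic stem cell line is of this cell type.

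The windows read here are the gene span with 5 kb on each side. Together they held 894 CCGG sites, a median of 4 per window, at a density of 0.366 sites per kb of window. Windows of the 1129 other protein-coding genes of chromosome 11 held 1.17 sites per kb. No other CCGG lay within 500 bp of 50.1% of the receptor sites. The promoters themselves were almost free of the assayed sequence. Of the 168 genes, 135 have an entry among the RefSeq promoters, which run from 250 bases before to 50 bases after the start. CCGG was found in 9 of these 135 (6.67%), against 63.1% of all promoters in the table and 8.65% of 185 promoters of receptor genes on other autosomes. The median number of CG dinucleotides was 1 in receptor promoters and 14 in all promoters, and 37 receptor promoters held none. The median GC content was 37.0% in receptor promoters and 58.7% in all promoters. The motif TAATTA, a core read by homeodomain factors, was found on either strand in 25.2% of the receptor promoters, in 20.5% of the receptor promoters of other autosomes and in 4.84% of all promoters. TATAAA was found in 37.0%, 33.5% and 11.5% of these sets. These matches, counted on both strands, describe letters in the window and show no binding.

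The promoter sites that could be read are shown because they are the few places where the assay touched a receptor promoter directly. Only 6 of 10 listed promoter sites had a tag in each of the 4 libraries of 1000 cells. The sequences are from RefSeq (GRCh38.p14), 5′ to 3′ on the strand of the gene, with CCGG in capitals. For 4 genes the 250 bases before the start are given, and for OR52E5 and OR10G4, whose site lies just after the start, 24 bases around it.
OR52N1, minus strand, chr11:5791266-5791515: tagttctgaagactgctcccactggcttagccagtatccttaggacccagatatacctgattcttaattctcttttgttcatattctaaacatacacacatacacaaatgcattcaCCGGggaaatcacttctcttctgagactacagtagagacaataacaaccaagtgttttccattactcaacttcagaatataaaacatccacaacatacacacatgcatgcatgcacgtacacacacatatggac
OR9I1, minus strand, chr11:58125531-58125780: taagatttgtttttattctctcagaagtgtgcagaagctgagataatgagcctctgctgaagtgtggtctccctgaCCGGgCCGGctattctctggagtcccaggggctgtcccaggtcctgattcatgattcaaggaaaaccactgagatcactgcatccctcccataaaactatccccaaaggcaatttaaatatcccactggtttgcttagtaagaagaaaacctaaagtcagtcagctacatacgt
OR8G1, plus strand, chr11:124240845-124241094: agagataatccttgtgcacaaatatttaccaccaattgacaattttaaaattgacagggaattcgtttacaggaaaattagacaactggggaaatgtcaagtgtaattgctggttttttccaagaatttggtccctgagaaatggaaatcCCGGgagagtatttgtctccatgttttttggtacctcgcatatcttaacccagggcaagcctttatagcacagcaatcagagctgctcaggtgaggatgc
OR8B8, minus strand, chr11:124445697-124445946: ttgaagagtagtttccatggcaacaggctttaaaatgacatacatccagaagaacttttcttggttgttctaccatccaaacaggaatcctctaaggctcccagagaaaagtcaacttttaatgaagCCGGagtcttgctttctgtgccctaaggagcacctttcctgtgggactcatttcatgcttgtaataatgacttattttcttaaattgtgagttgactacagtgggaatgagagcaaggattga
OR52E5, plus strand, chr11:5893222-5893245: tctggggtatCCGGtccttcacag
OR10G4, plus strand, chr11:124012987-124013010: acactgtgcaCCGGttgtttgagt

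At these 6 sites together, 20 of 52 HepG2 tags and 54 of 55 H1ES tags carried 5mC. In OR9I1 the first of the 2 sites shown, 172 bases before the start, had 4 of 8 and 2 of 8 tags with 5mC in HepG2, against 5 of 5 and 6 of 6 in H1ES. The OR52N1 site, 132 bases before the start, stood apart, with 7 of 12 and 4 of 4 tags methylated in HepG2 and 7 of 7 and 5 of 5 in H1ES. In OR8G1, at 99 bases before the start, 0 of 2 and 0 of 3 HepG2 tags carried 5mC, against 5 of 5 and 2 of 2 H1ES tags. The OR8B8 site had 1 of 2 and 2 of 4 methylated tags in HepG2 and 4 of 4 in each H1ES library. The OR10G4 site, at the second transcribed base, had 0 of 4 and 0 of 2 in HepG2 and 3 of 3 and 8 of 9 in H1ES. The OR52E5 site had 0 of 2 and 0 of 1 in HepG2, against 2 of 2 and 3 of 3 in H1ES. With so few tags, a single promoter was not resolved beyond this count, and the rest of the account rests on whole windows and clusters.

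Across all receptor windows, most tags were unmethylated in HepG2 and nearly all carried 5mC in H1ES. The share of tags with 5mC was 30.6% and 30.7% in the 2 HepG2 libraries, a mean of 30.6% ± 0.0693 (SD, n = 2), from 2252 and 1818 tags. In H1ES it was 97.9% and 98.0%, a mean of 98.0% ± 0.0779 (SD, n = 2), from 2796 and 2240 tags. The groups did not overlap. HepG2 minus H1ES was -67.3 percentage points. The exact two-sided permutation test gave p = 0.33, the smallest value that 2 against 2 libraries allow. The 95% Clopper-Pearson intervals of the single libraries, 28.7% to 32.5% and 28.6% to 32.9% in HepG2, are wider than the spread between them and cover counting error only. Tags without either mark made up 69.3% ± 0.0768 of the total in HepG2, against 1.35% ± 0.0429 in H1ES.

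In HepG2 the receptor windows stood further from H1ES than windows of other genes of the chromosome did. All listed sites of chromosome 11, receptor sites among them, had 59.4% ± 0.812 5mC in HepG2 and 93.3% ± 0.561 in H1ES. Windows of the other chromosome 11 genes had 67.7% ± 0.948 5mC in HepG2 and 91.9% ± 0.629 in H1ES. Within a library, the receptor share minus that of the other genes was -36.4 and -37.6 points in HepG2, against +6.49 and +5.71 points in H1ES, so its sign differed between the lines (exact permutation p = 0.33, the smallest possible). CCGG sites crowd together at unmethylated promoters in both lines, so the comparison was repeated on isolated sites, those with no other CCGG within 500 bp. There the difference was -35.0 and -37.9 points in HepG2 and +1.61 and +1.52 points in H1ES. Receptor genes of other autosomes, 218 in number, had 39.6% ± 0.247 5mC in HepG2 and 96.3% ± 0.126 in H1ES. The chromosome 11 share minus theirs was -8.87 and -9.12 points in HepG2, or -2.54 and -4.91 points at isolated sites, and 1.52 and 1.81 points in H1ES.

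The low level belonged to the DNA between the genes as well. Gene spans of the receptors had 31.4% ± 0.398 5mC in HepG2 and their flanks 30.1% ± 0.449, against 98.4% ± 0.0554 and 97.7% ± 0.156 in H1ES. Sequence inside the clusters that lies in no gene window had 30.1% ± 0.781 5mC in HepG2 and 95.5% ± 0.0779 in H1ES. Receptor windows minus this intergenic DNA was -0.0379 and 1.16 points in HepG2, a difference within the spread, although at isolated sites it was 6.28 and 5.79 points. Sites inside the clusters that lie in the window of another gene and in no receptor window were pooled too. They had 58.0% ± 2.29 5mC in HepG2 and 94.3% ± 0.724 in H1ES. The receptor share minus that of these sites was -25.8 and -28.9 points in HepG2, against 3.13 and 4.27 points in H1ES.

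**Figure D1:**
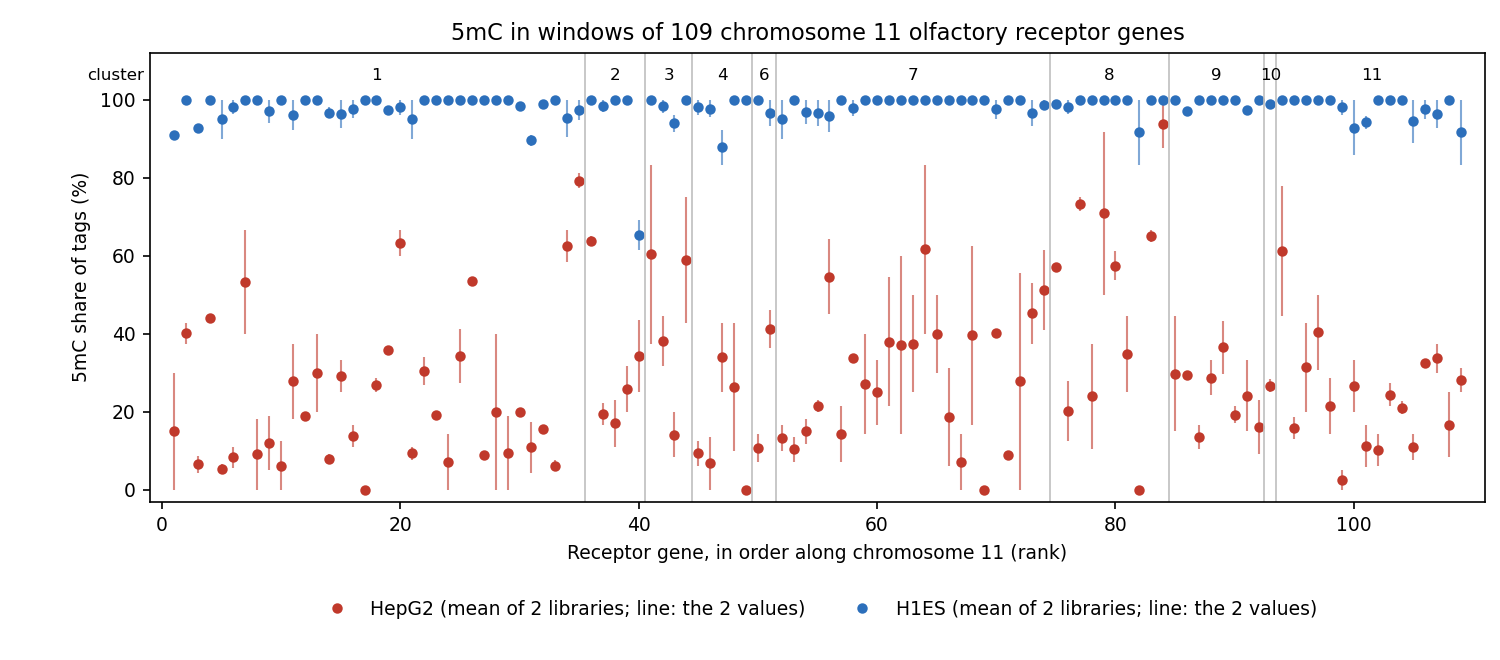
5mC share of tags (%) in the windows of the 109 receptor genes with at least 5 tags in every 1000-cell library, in order along chromosome 11. Red points are HepG2 and blue points H1ES means of 2 libraries, vertical lines join the 2 library values, and grey lines part the clusters. The HepG2 means spread between 0 and 93.8% around a median of 25.9%, while 106 of 109 H1ES means are at 90% or more.

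Gene by gene, the picture was uneven in HepG2 and nearly flat in H1ES, as the plot of genes along the chromosome shows. Of the 168 genes, 7 had no CCGG site in the window and 16 had sites but no tag in at least 1 library. Another 145 had a tag in every library, 109 of them at least 5 and 20 of them at least 20. Because windows overlap, 56 genes share at least 1 site with another receptor gene and are not independent of it. Among the 109, both HepG2 libraries were below both H1ES libraries in 108, where 75.3% of all 18520 gene windows with as many tags showed this. The mean HepG2 share was under 50% in 91 of the 109 (83.5%), against 24.8% of all gene windows. The H1ES mean was at least 90% in 106 of them (97.2%), against 61.7% of all windows. It was 100% in both libraries in 63, for which no share over all windows is given. The median over the 109 was 25.9% in HepG2 and 100% in H1ES, against 72.7% and 92.5% over all windows.

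Only OR5B21, of cluster 8, overlapped between the lines, with 87.5% and 100% 5mC in HepG2 and 100% in both H1ES libraries, from 6 to 10 tags. The other end of the range held 4 genes, OR51B4, OR4C3, OR5B17 and OR8U3. They had no methylated tag in either HepG2 library of 1000 cells, from 5 to 15 tags, and H1ES means of 91.7% to 100%. Pooled over the single HepG2 cells, OR51B4 had 2 of 9 tags methylated, OR4C3 2 of 17, OR8U3 2 of 12 and OR5B17 0 of 10. OR51E1 and OR51E2, class I receptors also known for expression in the human prostate, had 4% and 6.67%, and 11.1% and 5.56% 5mC, in HepG2. In H1ES, OR51E1 had 100% and 90% and OR51E2 had 100% and 96.3%. These genes were picked out after their values were seen. In H1ES the low exceptions were OR2D3 at 69.2% and 61.5%, OR4X1 at 92.3% and 83.3%, and OR52L1 at 88.2% and 90.9%. The unmethylated H1ES tags of OR2D3 came from 3 sites 4296 to 4876 bp past the end of the gene, with 12 of 26 tags unmethylated there.

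In the 20 genes with at least 20 tags in every library, HepG2 could be tested against H1ES window by window. edgeR's quasi-likelihood test on tags, with Benjamini-Hochberg adjustment over 17364 autosomal windows, called all 20 lower in HepG2 than in H1ES (adjusted p between 5.68e-78 and 3.00e-04). Of all windows 64% were called lower and 2.45% higher, so most gene windows were called lower in HepG2 on this scale. The test was therefore repeated with each library's median window taken out, which leaves changes relative to that level. The median difference of all windows in log2 odds of 5mC was -1.45 before this step and 0.56 after it. On the relative scale 19 of the 20 receptor genes were lower in HepG2, where 29.8% of all windows were called lower and 42.7% higher. OR52B2 was the exception, with an adjusted p of 0.144, and OR51M1 stood at the threshold with 0.0488. OR51M1 lost this call without HepG2 replicate 1 (0.139), HepG2 replicate 2 (0.101) or H1ES replicate 2 (0.260), and OR52B2 gained it without H1ES replicate 2 (0.0267). None of the 20 was higher on either scale. Of the 20, 7 share a site with another of the 20, so their calls are not independent. A gene with few sites could enter this test only by depth, so the 20 are the deeper windows and not a sample of the 168.

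In percentage points, the largest differences among the 8 genes with a mean of at least 40 tags were in cluster 1. OR52K1, a class I receptor gene, had 8.70% and 4.44% 5mC in HepG2, against 93.8% and 91.9% in H1ES. Its difference in log2 odds was -7.43 ± 0.59 (SE, adjusted p = 3.42e-35 by edgeR). OR56A4 had 16.7% and 14.3% in HepG2 and 98.0% and 100% in H1ES, and OR56A3 had 20.2% and 19.8% in HepG2 and 97.9% and 98.6% in H1ES. The libraries of each line lay close together for these 3 genes and the lines were far apart. OR56A3 is a long gene of 79760 bp that spans 3 other receptor genes. OR56A4 is among them, so the windows of OR56A3 and OR56A4 share tags and are not separate cases. With each site given to its nearest gene it still had 21.1% and 19.1% in HepG2, against 98.3% and 98.4% in H1ES.

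The differences in percentage points were smaller in OR9Q1, OR51B5 and OR52N4. In log2 odds OR52N4 had the largest of the 8, -9.67 ± 0.98 (SE), a value that depends on the prior count because no H1ES tag was unmethylated. OR9Q1, the most deeply read receptor window, had 56.4% and 58.0% in HepG2 from 204 and 162 tags, against 98.2% and 99.4% in H1ES. Its difference in log2 odds was -5.85 ± 0.40 (SE, adjusted p = 4.47e-48 by edgeR). OR51B5, a gene of 165335 bp that spans 6 other receptor genes, had 35.0% and 36.5% in HepG2 and 95.9% and 98.5% in H1ES. OR52N4 had 34.1% and 26.8% in HepG2, against 100% in both H1ES libraries. OR2AT4, the lone receptor gene of its cluster and one also known from human skin, had 25.0% and 28.3% in HepG2 and 100% and 97.8% in H1ES. OR4D9 varied more between libraries, with 15% and 33.3% in HepG2 against 97.1% and 97.4% in H1ES.

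The other tested genes were read from a mean of fewer than 40 tags. OR56A1, OR52A5 and OR5M11 were lowest among them, with HepG2 means of 6.23%, 7.88% and 8.85%, against H1ES means of 100%, 96.6% and 100%. OR4D11 and OR2AG1 had 19.3% ± 3.03 and 19.4% ± 3.93 in HepG2, against 100% and 98.4% ± 2.28 in H1ES. OR5A2, a neighbour of the gene for the human beta-ionone receptor, had 29.7% and 29.2% in HepG2, against 97.2% and 97.1% in H1ES. OR10AG1, OR4D10 and OR5P3 had HepG2 means of 33.9%, 36.5% and 38.1% and H1ES means of 97.9%, 100% and 98.3%. The highest of the 20 tested genes were OR2AG2 with 62.5% and 65.0%, OR51M1 with 60.0% and 66.7%, and OR52B2 with 66.7% and 58.3% in HepG2. Their H1ES values were 100% and 100%, 96.0% and 100%, and 100% and 90.5%. OR2AG2 and OR2AG1 are near neighbours in cluster 2, so adjacent receptor genes of 1 subfamily differed in HepG2 by more than the spread of either.

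**Figure D2:**
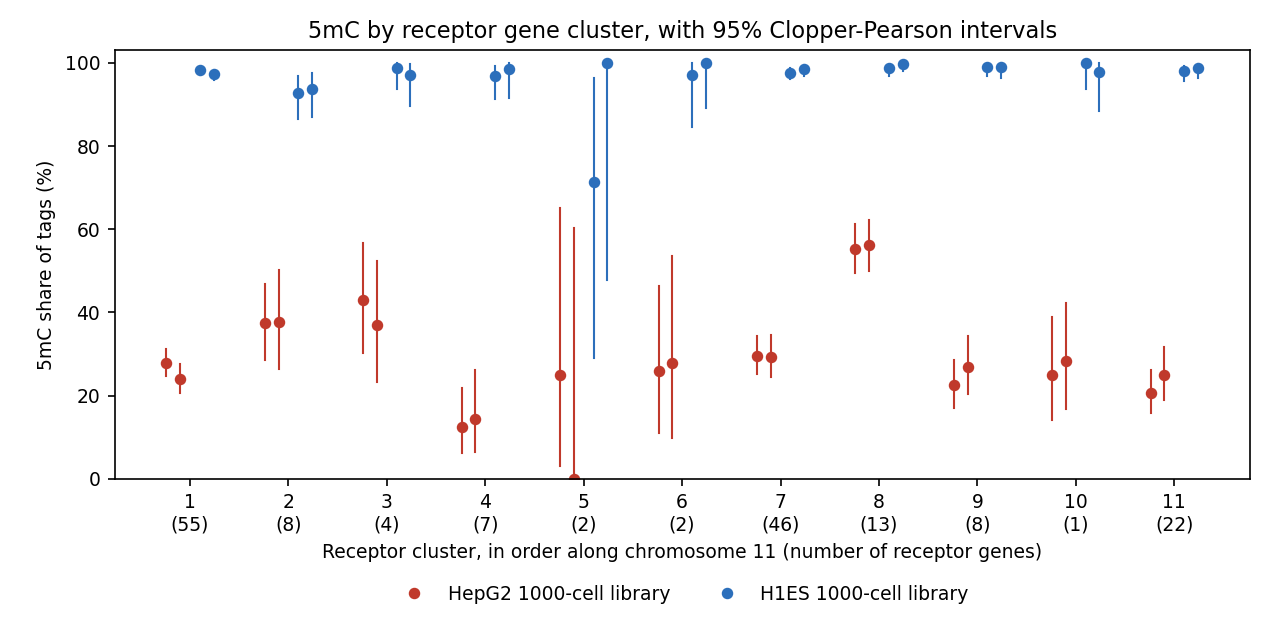
5mC share of tags (%) in each of the 11 receptor clusters, numbered along chromosome 11 with the number of genes in brackets. Points are single 1000-cell libraries, HepG2 in red and H1ES in blue, and lines are 95% Clopper-Pearson intervals. Cluster 8 lies highest in HepG2 at 55.8%, and cluster 4 lies at 13.4%, below all but the thinly covered cluster 5.

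The 168 genes fall into 11 clusters when gaps over 500 kb are taken as breaks. HepG2 was below H1ES in all 11 clusters in both libraries, with an exact permutation p of 0.33 in each, unchanged by adjustment over the 11. Cluster 1 (chr11:4367263-6200186, OR52B4 to OR52W1) holds 55 genes, which are all the class I genes of the chromosome, and had 27.8% and 24% in HepG2, against 98.2% and 97.3% in H1ES. Cluster 7 (chr11:55343201-56989843, OR4A16 to OR5AK2, 46 genes) had 29.6% and 29.3% in HepG2, against 97.7% and 98.6% in H1ES. Cluster 11 (chr11:123753580-124571374, OR6X1 to OR8A1, 22 genes) had 20.7% and 24.9% in HepG2, against 98.0% and 98.7% in H1ES. Its most deeply read genes, OR10G6 and OR8B2, had too few tags in at least 1 library for the test of genes and had HepG2 means of 21.4% and 21.1%, against 100% in every H1ES library. The large clusters thus lay close together within each line.

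Cluster 8 (chr11:58023881-58508105, OR9Q1 to OR5B21, 13 genes) stood apart from them in HepG2, as the plot of clusters shows. It had 55.4% and 56.2% 5mC in HepG2 and 98.6% and 99.6% in H1ES, from 267 to 370 tags. Of its 10 genes with at least 5 tags, 6 had a HepG2 mean of 50% or more, against 12 of the 99 in the other clusters. These included OR5B21, OR9Q2 with 71.4% and 75.0%, OR5B3 with 66.7% and 63.6%, and OR1S1 with 50% and 91.7%. In the same cluster OR9I1 had 28.0% and 12.5% in HepG2 and 96.3% and 100% in H1ES, and OR5B17 had no methylated HepG2 tag. Low and high genes thus lay side by side in this cluster.

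The smaller clusters were read from fewer tags. Cluster 4 (chr11:48216810-48489722, OR4B1 to OR4A47, 7 genes) had 12.5% and 14.3% in HepG2 and 96.9% and 98.4% in H1ES. Within it, OR4X2 had 13.6% and 0 in HepG2 and 95.5% and 100% in H1ES, and OR4B1 had 6.25% and 12.5% against 96.2% and 100%. Cluster 2 had 37.4% and 37.7% in HepG2 and, with OR2D3, the lowest H1ES share of the well covered clusters, 92.9% and 93.8%. Cluster 3 had 43.1% and 37.0% in HepG2 and 98.8% and 97.0% in H1ES. Its gene OR10A6 had 8.33% and 20% in HepG2 and 96.2% and 91.7% in H1ES. Clusters 6, 9 and 10 had HepG2 means of 26.9%, 24.7% and 26.7% and H1ES means of 98.5%, 98.9% and 98.9%. In cluster 6, OR4A5 had 46.2% and 36.4% in HepG2 and OR4C46 had 7.14% and 14.3%. Cluster 5, with OR4C12 and OR4C13, had 4 to 8 tags in a library, too few to place.

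The 2 receptor classes were compared next. Class I had 25.9% ± 2.69 5mC in HepG2 and class II 33.1% ± 1.52, against 97.8% ± 0.662 and 98.1% ± 0.478 in H1ES. Class I minus class II was -4.22 and -10.2 points in HepG2, against 0.43 and -1.18 points in H1ES (exact permutation p = 0.33, the smallest possible). Without cluster 8, left out after its high HepG2 level was seen, which could only narrow the gap, class II had 27.1% ± 1.02 in HepG2 and class I minus class II was -1.23 ± 3.71 points; this is a description and no test of the classes. Since every class I gene lies in cluster 1, class and cluster cannot be told apart.

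**Figure D3:**
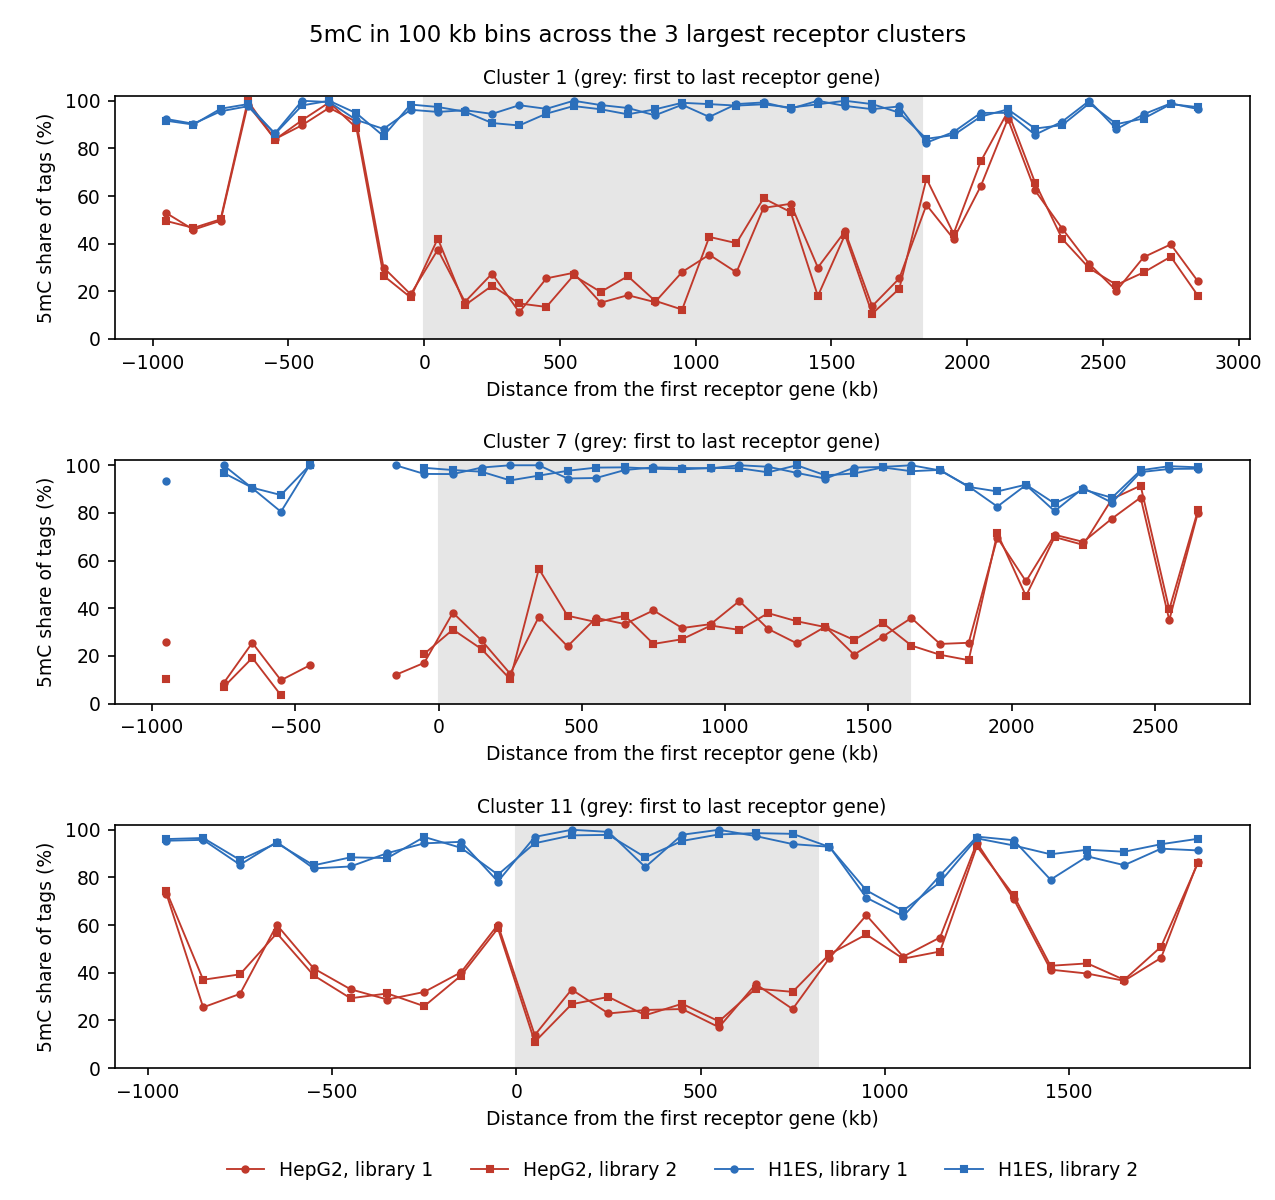
5mC share of tags (%) in 100 kb bins across clusters 1, 7 and 11 and 1000 kb on each side, by distance from the first receptor gene. Red lines are the 2 HepG2 and blue lines the 2 H1ES libraries, and grey marks the cluster. Bins with fewer than 20 tags in a library are left blank for it. Inside the clusters the median HepG2 bin is at 24%, 32% and 26.4%.

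Around the 3 largest clusters, the bins of HepG2 varied more than inside, as the profiles show; these medians are a description without a test. The median of 100 kb bins inside cluster 1 was 24% in HepG2 and 96.4% in H1ES, and outside it, within 1000 kb, 48.1% in HepG2 and 93.8% in H1ES. For cluster 7 the medians were 32% inside and 42.7% outside in HepG2, and 98.2% and 91.4% in H1ES. This outside median joins unlike sides. Before the first receptor gene, every bin with enough tags in both HepG2 libraries lay below the inside median. The nearest of them had 17.1% and 20.8%. After the cluster, HepG2 bins ran from 25.5% and 18.2% to 86.4% and 91.4%. For cluster 11 they were 26.4% and 44.2% in HepG2, and 96.6% and 89.7% in H1ES. The outside bins are not free of receptor genes: cluster 2 lies in those of cluster 1, and cluster 6 in those of cluster 7. All bins inside clusters 7 and 11 and 16 of 19 inside cluster 1 were under 50% in the mean of the HepG2 libraries. A bin of cluster 7 with 36.4% and 56.5% was under it in the mean but not in both libraries. Low bins were common on this chromosome: 53.4% of its 1302 bins with enough tags were under 50% in both HepG2 libraries. The midpoints of 153 of the 168 receptor genes (91.1%) lay in such a bin, against 224 of 1129 other protein-coding genes (19.8%). Runs of at least 10 such bins held 85 of the 168, with no count of other genes to set beside it.

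The genes interspersed with the receptors differed among themselves. Of the 20 non-receptor genes inside the clusters, 13 were tested and 11 were lower in HepG2, 9 of them also on the relative scale, and PATL1 was higher on the relative scale. A list of 10 non-receptor genes lying among the class I receptors had 6 tested, all lower in HepG2 and 5 of them also relative to the median window. In both sets TRIM5 spans TRIM6 and TRIM34, so the calls of these genes share tags and are not independent. Over all windows 64% were called lower and 29.8% on the relative scale. OSBP, an oxysterol-binding protein gene of cluster 9, had 89.3% and 92.3% 5mC in HepG2, and PATL1, for an mRNA decay factor, 87.2% and 85.7%. TRIM5, a retroviral restriction factor gene in cluster 1, had 60.8% and 65.3% in HepG2 and a mean of 97.6% in H1ES. MMP26, a metalloproteinase gene in cluster 1, had 19.1% and 20% in HepG2 and a mean of 95.9% in H1ES. Receptor sites were not taken out of the windows of these genes. A window that overlaps receptor windows shares their tags, so its level is not a separate observation. These genes were named after their values were seen.

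**Figure D4:**
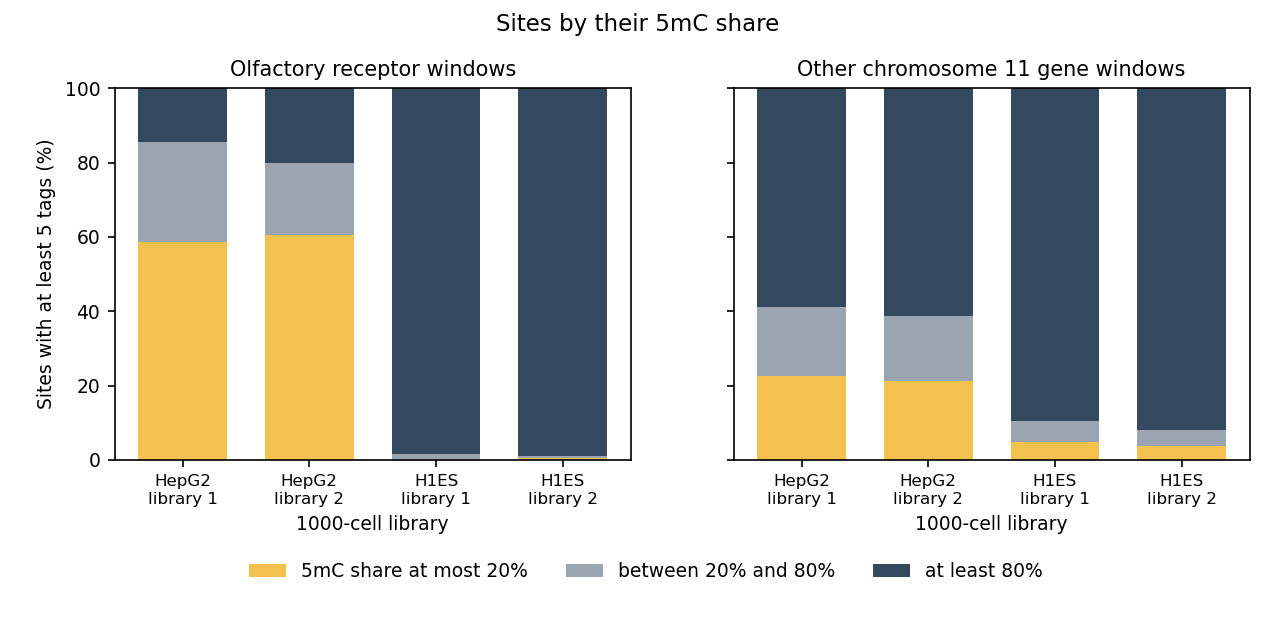
Share of CCGG sites with at least 5 tags (%) whose 5mC share is at most 20%, between 20% and 80%, or at least 80%, in each 1000-cell library. The left panel holds receptor windows and the right panel windows of other chromosome 11 genes. In receptor windows 58.7% and 60.4% of the HepG2 sites are in the lowest class, and 98.5% and 98.9% of the H1ES sites in the highest.

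At the level of single sites, HepG2 receptor windows held all 3 kinds of site. Of 206 and 144 sites with at least 5 tags in the HepG2 libraries, 58.7% and 60.4% had at most 20% 5mC and 14.6% and 20.1% had at least 80%. The remaining 26.7% and 19.4% lay between. In H1ES, 260 of 264 and 187 of 189 sites had at least 80%. In windows of other chromosome 11 genes, 59.0% and 61.4% of the HepG2 sites and 89.6% and 91.9% of the H1ES sites had at least 80%. Pooled 5mC in the receptors therefore averages over sites that differ, and a share of 1000 cells does not say how alleles or cells are mixed.

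The single cells gave the same order. In HepG2 cells 1 to 5 the 5mC share of receptor tags was 34.5%, 33.1%, 30.3%, 35.9% and 39.5%, from 194, 172, 1137, 198 and 835 tags. In H1ES cells 1 to 5 it was 95.9%, 96.9%, 98.0%, 96.2% and 96.7%, from 417, 486, 351, 677 and 330 tags. The 95% Clopper-Pearson intervals of all HepG2 cells ended at 43.0% or below, and those of all H1ES cells began at 93.6% or above. In the same cells the other chromosome 11 genes had 66.5% to 69.2% in HepG2 and 91.5% to 92.7% in H1ES. No test was made, because each line is represented by cells of unknown culture. HepG2 cells 3 and 5 held 2455908 and 2434482 tags in all, against 526207 to 611318 in the other 3. They also had the lowest and the highest HepG2 share, so leaving both out cannot move the median of 34.5%. Their 95% intervals, 27.7% to 33.1% in cell 3 and 36.2% to 42.9% in cell 5, did not overlap.

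**Figure D5:**
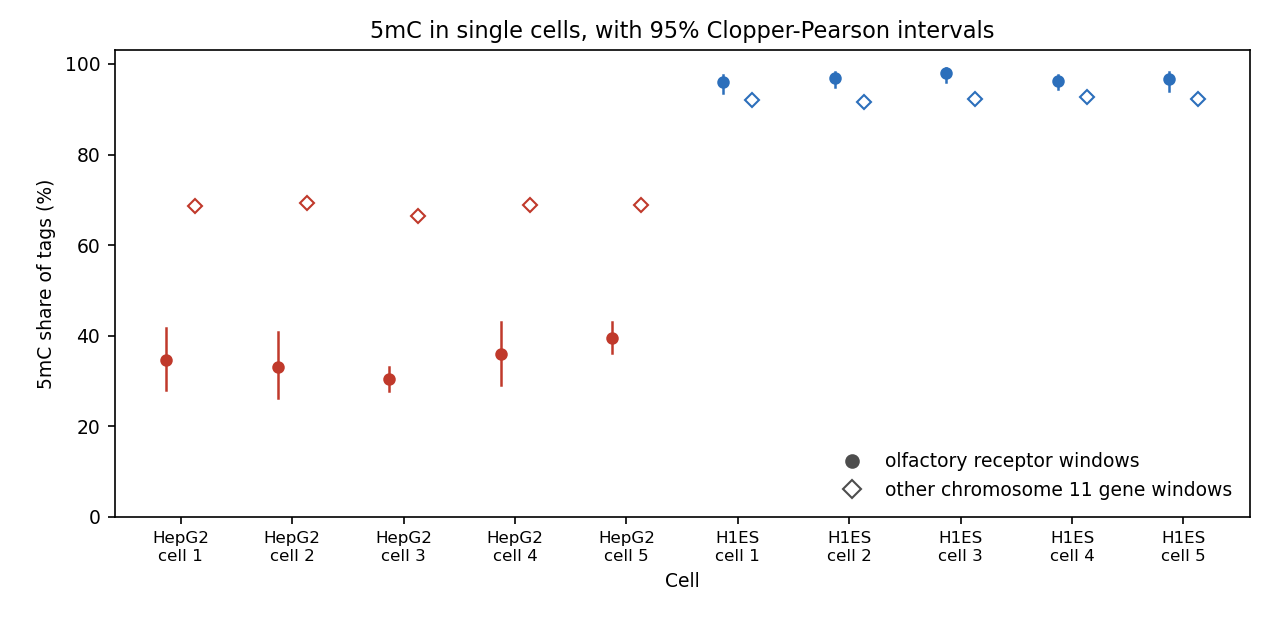
5mC share of tags (%) in each single cell, HepG2 in red and H1ES in blue. Filled circles are receptor windows and open diamonds windows of other chromosome 11 genes, with 95% Clopper-Pearson intervals. The 5 HepG2 cells lie between 30.3% and 39.5% in receptor windows and the 5 H1ES cells between 95.9% and 98.0%.

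Sites were next compared between the pooled libraries and the cells. The 88 receptor sites with at most 20% 5mC in pooled HepG2 libraries had 4.55% to 21.1% 5mC across the 5 HepG2 cells. The 17 sites with at least 80% had 93.3% to 100% there, and the 47 sites between had 34.8% to 66.7%. These classes were set in the 1000-cell libraries, and the cells are separate libraries of the same line. Within a cell, 187 of 619 HepG2 observations of a receptor site with at least 2 tags carried both an unmethylated and a methylated tag (30.2%), against 20.6% at other chromosome 11 gene sites. In H1ES this was 22 of 539 (4.08%), against 3.84% at the other genes. The share was 28.3% and 34.3% in the deeper HepG2 cells 3 and 5 and 16.7% to 32% in the other 3, which gave 19 to 30 such observations each. Of 237 receptor sites read in at least 3 HepG2 cells, 74 were unmethylated in every cell, 25 methylated in every cell and 138 mixed. Of 296 such H1ES sites, 254 were methylated in every cell, 0 unmethylated in every cell and 42 mixed.

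5hmC was scarce in the receptor windows. HepG2 had 1 tag with 5hmC in each library, 0.0444% and 0.055% of receptor tags, and H1ES had 21 and 13, or 0.751% and 0.580%. The lines did not overlap (exact permutation p = 0.33, the smallest possible). Other chromosome 11 genes had more 5hmC in both lines, 0.276% ± 0.0333 in HepG2 and 1.84% ± 0.169 in H1ES. The receptor share minus theirs was -0.208 and -0.245 points in HepG2, against -1.21 and -1.14 points in H1ES, and at isolated sites -0.262 and -0.306 against -0.902 and -1.07. No receptor gene was called for 5hmC by edgeR, and 0 of 20 reached an unadjusted p under 0.05 (lowest adjusted p 0.423), where 15.8% of all windows were called lower in HepG2 and 0% higher. DESeq2 and limma also called 0 of the 20. These 20 windows held too few tags with 5hmC for such a call to be likely. OR9Q1, the most deeply read of them, held 2 and 0 H1ES tags with 5hmC, against 18 and 7 in ANO2, a called window. The 0 of 20 thus cannot be weighed against the 15.8% of all windows. Among the 20 tested genes, the highest H1ES shares were 1 tag in each library for OR5A2 (2.78% and 2.86%) and 1 tag in 1 library for OR52B2, OR51M1 and OR5P3. At least 1 H1ES tag with 5hmC was seen in 26 of the 109 genes, for which no share over all windows is given. In the single cells 5hmC was read from 3 tags in HepG2 cell 3 and from 0 in the other 4 HepG2 cells, and from 0 to 10 tags in H1ES cells. A count of 0 among 194 tags, as in HepG2 cell 1, allows a share of up to 1.55%, by the limit of 3 tags.

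Genes of the pathway that olfactory receptors feed were read from a list of 23. The receptor activates the G protein encoded by GNAL, which stimulates adenylyl cyclase 3 (ADCY3). Cyclic AMP then opens the CNGA4 and CNGB1 channel and calcium opens the chloride channel ANO2. Of the 23, all tested, 19 were lower and 1 was higher in HepG2 by edgeR, and on the relative scale 13 were lower and 6 higher. Of all windows, 64% were called lower and 2.45% higher, and relative to the median window 29.8% lower and 42.7% higher. The median HepG2 level was 51.3%, and the median H1ES level 92.3%. ANO2 had 32.1% and 32.6% 5mC in HepG2 and 95.4% and 96.3% in H1ES. CNGB1 had 44.6% and 46.0% in HepG2, against 95.6% and 94.1% in H1ES, and ADCY3 60.5% and 56.4% in HepG2, against 96.3% and 97.2% in H1ES. These 3 were lower on both scales. SLC24A4, an exchanger that helps end the response in mice, had 43.9% and 48.5% in HepG2 and 96.3% and 96.9% in H1ES. EBF1 and EBF3, of the Olf1/EBF transcription factors, had HepG2 means of 28.2% and 51.3% and H1ES means of 84.7% and 88.4%. The trafficking genes RTP1 and RTP2, which bring receptors to the cell surface, had HepG2 means of 50.03% and 68.2% and H1ES means of 99.2% and 98.5%. EMX2, a homeobox factor gene needed for normal receptor expression in mice, was the 1 gene called higher, with 33.3% and 40.7% in HepG2 and 12.3% and 22.2% in H1ES.

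The labels of the lines were checked on marker genes through their unmethylated share, since the files hold no expression. SERPINA1, the liver antitrypsin gene, had 58.6% in HepG2 against 4.37% in H1ES, and HNF4A had 22.1% against 2.73%. POU5F1, a pluripotency factor gene, had 12.6% in HepG2 against 30.0% in H1ES. Other H1ES markers went the other way, with 52.0% in HepG2 against 1.28% in H1ES for DPPA2 and 51.7% against 16.6% for DPPA4, and VRTN had 42.2% 5mC in HepG2 against 87.2% in H1ES. All 8 tested HepG2 markers had lower 5mC in HepG2, and of 7 tested H1ES markers 3 were lower and 2 higher in HepG2, where 64% of all windows were lower and 2.45% higher. On the relative scale 5 HepG2 markers were lower and 1 higher in HepG2, and 2 H1ES markers were lower and 4 higher, against 29.8% and 42.7% of all windows. Marker by marker the check of the labels was thus mixed. Total depth was 4911898 to 6644517 tags in the 1000-cell libraries, with a tag at 51.6% to 53.7% of the 2317745 listed sites.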

How the data were processed

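The labels' protocols describe DARESOME for bulk DNA and scDARESOME for single cells. HpaII cut unmethylated CCGG sites, and MspI, together with a glucosylation step, served to tell methylated from 5hmC-bearing ones. Each state was ligated to its own tag. The tools named for the upstream steps are Bowtie2 2.3.4.1, UMI-tools 0.5.4 and cutadapt 1.5, with hg38 for human libraries, according to notes of the submitters on processing. The deposited tables give, for each site, the fraction of tags of each kind and the count of tags. Which fraction column holds which kind was told from the values, per the files: column 4 took 61.3% to 63.6% of tags at crowded sites in all 4 libraries of 1000 cells and 1.58% to 1.72% at isolated sites in H1ES, and the rarest, column 6, was read as 5hmC. The listed position was the second base of CCGG in 3594 of 3594 cases checked against RefSeq promoters. Fraction times tags came within 0.00141 of a whole number, and these tags were pooled over sites. Losing a CCGG to a variant removes a site, and PCR duplicates beyond the authors' handling cannot be seen.

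Windows were gene spans of RefSeq GRCh38.p14 with 5 kb on each side. Libraries were compared with edgeR 4.0.16 (R 4.3.3; 5mC tags against other tags, 1 term per library, at least 20 tags in every library, threshold 0.05 on the adjusted p, standard error as the effect over the root of its F) and with exact permutation tests (SciPy 1.17.1). Single cells got exact Clopper-Pearson intervals at 95% and no test. limma 3.58.1 (pseudocount 0.5) and DESeq2 1.42.0 were alternatives, and the edgeR code was tested on simulated data. Replicate numbers did not pair the libraries (correlation of deviations 0.0113), and libraries of a line differed beyond sampling noise (chi-square per degree of freedom 1.05 in HepG2, p = 4.42e-06, and 2.48 in H1ES). The members and lists were chosen with earlier results of these data known. Named genes: from windows averaging 40 or more tags, 6 each of largest and smallest difference, which overlap since 8 were eligible; the 2 deepest of each cluster; the 4 with most H1ES 5hmC among the 20 tested; and the 6 of the signalling list with the lowest p. Most genes outside this rule are said to be so in the text or belong to counts given in full. Also outside it are RTP1, RTP2, OR9Q2, OR5B3, OR1S1 and the named marker genes. The mouse libraries were not analysed here.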

Additional observations from a re-analysis of the deposited data

Results flagged for a closer look

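Groups of 5 cells were searched for a value far from the other 4, in 36 combinations of line, region and kind of tag, where chance flags about 1 in 20. HepG2 cell 3 stood apart in 5hmC in 3 of them. Its 5hmC share was 0.264% of receptor tags, 0.414% of class II tags and 1.60% of cluster 8 tags, against 0 in the other 4 HepG2 cells in each. The first 2 of these shares rest on the same 3 tags and the cluster 8 share on 2 of them, and this cell had the most receptor tags, 1137.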

How the results depend on the processing

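Of the alternatives to results that answer a comparison, 245 kept direction and size, 14 moved and none reversed. The count of receptor genes lower in HepG2, 20 of 20 tested, moved with the number that could be tested: 61 of 62 at a minimum of 10 tags, 6 of 6 at 40, 133 of 157 without one, 4 of 4 for gene spans alone, 50 of 50 with 10 kb each side and 5 of 5 at isolated sites. On the relative scale, 19 of 20, the same settings gave 58, 6, 101, 4, 50 and 4. Of all windows, the 3 tag minimum settings called 11626 of 18161, 9991 of 15388 and 11989 of 18875 lower. For gene spans, 10 kb and isolated sites it was 7638 of 14457, 13446 of 18063 and 6312 of 10506. Relative to the median window, 5391, 4681, 5484, 4459, 5532 and 3124 of these windows were lower. With at least 20 tags in place of 5, both HepG2 libraries were below both H1ES libraries in 20 of 20. The median HepG2 cell had 39.8% 5mC at sites with at least 2 tags, against 34.5%; the cause was not tested. Replicate numbers taken as a replicate block gave 20 and, relative, 18 lower genes, and leaving out each library in turn gave 21 to 27, all of those tested, and 19 to 25, where the lone library of a line is assumed to vary like the other line. With odds set against all autosomal tags, 17 receptor genes, and 3060 of all windows, were lower and 10949 windows higher, against 11114 and 425. Over all windows, isolated sites gave 6312 lower and 99 higher, and DESeq2 209 higher. On the relative scale isolated sites gave 3124 lower and 1523 higher, against 5171 and 7411. For 5hmC, 2745 windows were lower, but 1052 with DESeq2, 1344 against 5mC tags alone, 383 at isolated sites, 2 against autosomal tags, 1251 with the block, and 780 to 1877 when 1 library was left out. None of these settings called a receptor gene for 5hmC, where the few tags with 5hmC limit the test. OR51M1 lost its relative call under 8 alternatives. The depth of most receptor windows, a median of 10.6 tags, limits single genes: 20 of 168 were tested, and a fitted odds ratio depends on the prior count where H1ES had no unmethylated tag.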
